A study of Apis mellifera with 18 samples.

Results

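The serine proteases of the trypsin fold and the serpins, the proteins that trap and inactivate such proteases, were followed in honey bee (Apis mellifera) tissue. A gene was a member when its protein domain entry in the deposited annotation read Trypsin or began with Serpin. Of 17545 genes, 67 carried such a domain. The 5 genes among them with a venom name were dropped, and no gene had to be dropped for a chitin-binding peritrophin domain. The 62 members left were 55 trypsin-domain genes and 7 serpins. Counts came from RNA sequencing of 18 libraries, 3 in each of 6 groups, with a title that presents the series as work on collection preference in Italian honey bees. A tissue labelled tentacles and the mouthparts were each taken from bees of a control group (no pollen), of a pear pollen collection group and of a collection group for Olea europaea (olive) pollen, called olea below. No age, caste, colony or day is given, nor whether a replicate was 1 bee, a pool or a repeated preparation, so the p-values measure only the spread between these libraries, which may be technical. The 3 mouthparts libraries used as olea carry conflicting labels, since their titles and source names say pear pollen and their genotype entries say Olea europaea pollen. Every mouthparts olea result rests on reading them as olea.

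Trypsin-fold proteases are made as inactive zymogens and are switched on by a cut, often by another protease of the same kind. In insects they digest food in the gut, shape epithelia and cuticle, and act in series in the haemolymph, where chains of proteases with a clip domain lead to activation of the Toll ligand spaetzle and of prophenoloxidase, the enzyme of melanin formation. Serpins end such chains by binding a protease irreversibly. The members were grouped by the names of their best annotated matches into 12 cascade-type proteases, 8 genes with stubble, masquerade or corin names, 17 genes with trypsin or chymotrypsin names, 18 other trypsin-domain genes and 7 serpins. The names come from matches in several insect and other animal species, and 29 of the 62 match a honey bee gene. A name can therefore belong to a relative of the gene, and a few go against the domain. The serpin GB54611 is named for a thiamine transporter, and the trypsin-domain genes GB41407 and GB41710 for a guanylate cyclase and a mannosidase.

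Library totals ran from 25.9 to 41.4 M counts (M is 1e6). Levels are given as normalized CPM, counts per 1e6 counts after TMM scaling over the 18 libraries. The labelled tissues were checked against marker lists. Genes of antennal olfactory tissue (144 genes annotated as odorant receptors) took 0.245 to 0.277% of the counts in control tentacles and 0.286 to 0.295% with pollen. In the mouthparts they took 0.0077 to 0.00895% in controls and 0.00577 to 0.0074% with pollen, and 16 to 30 of them had no count in a group. The major royal jelly protein list, a mark of the hypopharyngeal gland (28 genes), took 2.03 to 3.04% in the control tentacles and 0.114 to 0.12% in tentacles of both pollen groups. In the mouthparts it took 8.21 to 8.79% in the controls and 0.929 to 1.32% with pollen. The fat body list (3 genes) took 0.114 to 0.124% in control mouthparts and 0.0305 to 0.0824% with pollen, and the haemocyte list (5 genes) 0.0722 to 0.0802% and 0.053 to 0.058%. Without phenoloxidase 2, 1 of its genes, the haemocyte list took 0.0586 to 0.0635% in control mouthparts and 0.051 to 0.0572% with pollen. In the tentacles the fat body list took 0.00429 to 0.0047% in the controls and 0.00287 to 0.00315% with pollen, and the haemocyte list 0.0593 to 0.0649% and 0.064 to 0.0713%. The peritrophin list holds 37 genes with a peritrophin name or a chitin-binding peritrophin domain, and only this annotation makes it a mark of the midgut. It took 0.279 to 0.31% in control mouthparts and 0.222 to 0.265% with pollen, and 0.0531 to 0.0632% and 0.0484 to 0.0499% in the tentacles. Muscle genes (32 genes) took 0.692 to 0.748% in control tentacles and 0.477 to 0.68% with pollen. In the mouthparts they took 5.26% in mouthparts pear replicate 2 and 4.94% in mouthparts olea replicate 2, against 3.24 to 3.62% in the other 7 mouthparts libraries. Mouthparts results were therefore also fitted without replicates 2, which leaves out mouthparts control replicate 2 (3.24%) as well. Where a call given below for a named member was lost there, this is stated. Neuronal genes (25 genes) took 0.192 to 0.203% in control tentacles and 0.214 to 0.222% with pollen, and 0.0837 to 0.0878% and 0.0896 to 0.107% in the mouthparts, and the venom list (33 genes) 0.646 to 0.654% in control mouthparts and 0.666 to 0.847% with pollen, and 0.417 to 0.458% and 0.444 to 0.474% in the tentacles. As shares of raw counts, with no overlap with controls, the hypopharyngeal gland, fat body, haemocyte, peritrophin and antennal lists thus lay lower with pollen in the mouthparts. The muscle, neuronal and venom lists lay higher there by the same measure. In the tentacles the hypopharyngeal gland, fat body, peritrophin and muscle lists lay lower and the antennal and neuronal lists higher, while the haemocyte and venom lists overlapped. A share depends on all other genes, so the fall of the hypopharyngeal gland list by itself raises the shares of the others. TMM factors over the 18 libraries were 0.857 to 0.867 in control mouthparts and 0.902 to 0.977 with pollen, and the lists were not scaled by them. Whether the higher lists stay higher after such scaling was not tested. The part of these tissues in the results below was not tested, and in bulk tissue fewer cells of a type and less RNA per cell cannot be told apart.

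Serine proteases and serpins took a larger share of the counts in the mouthparts. The 62 genes took 0.239 to 0.279% of all counts in the tentacles and 1.04 to 1.32% in the mouthparts, with no overlap between libraries. A single gene led both tissues, GB52598, whose name is stubble, in Drosophila a membrane-bound protease needed to shape legs and wings. It held 37.4% of the members' counts in the tentacles and 58.2% in the mouthparts. Without it the other 61 members came to 0.16% ± 0.0053 of counts in the control tentacles and 0.46% ± 0.0147 in the control mouthparts (SD, n = 3 each). Serpin counts were 0.572 to 0.658 times the protease counts in the tentacles and 0.3 to 0.324 times in the mouthparts, so that protease counts exceeded serpin counts in both and by more in the mouthparts. The excess of protease counts rests on GB52598. Without it serpin counts were 1.48 to 1.55 times those of the other proteases in the tentacles and 1.22 to 1.45 times in the mouthparts. The lower ratio in the mouthparts thus remained without GB52598, with no overlap of libraries. Most members were low. At least 1 normalized CPM on average was reached by 41 of the 62 in each tissue, and at least 100 by 4 in the tentacles and 10 in the mouthparts. In 12 members the counts summed over all libraries were only 7 to 111 and no fit tested them, 8 of them with trypsin or chymotrypsin names.

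**Figure D1:**
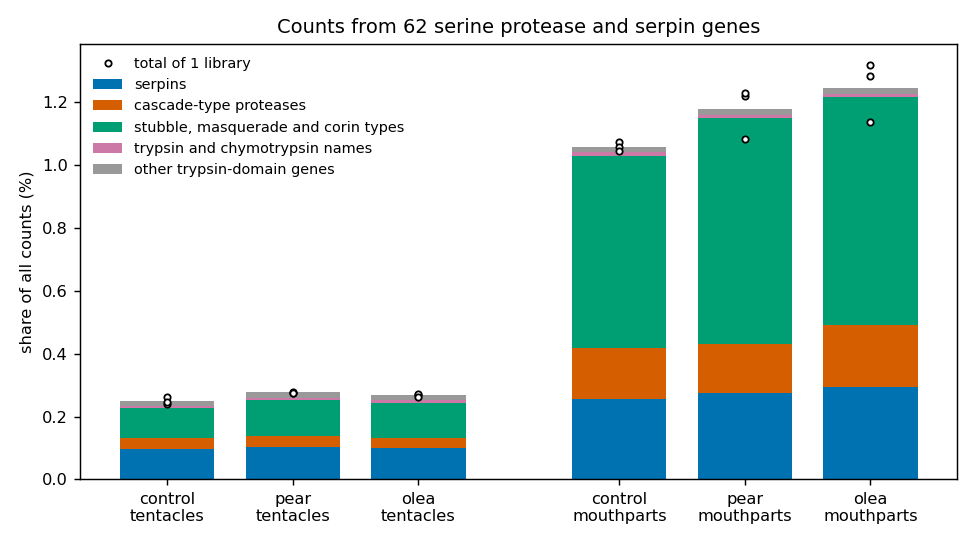
Share of all counts (%) taken by the 62 members in each tissue and group, as stacked bars of the mean over 3 libraries for 5 groups of members, with open points for the total of each library. The mouthparts bars, with library totals of 1.04 to 1.32%, stand well above the tentacles bars at 0.239 to 0.279%, and the stubble, masquerade and corin segment is the tallest in the mouthparts.

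On the length-scaled FPKM of the authors (fragments per kilobase and per 1e6 fragments), the scale on which genes can be compared, GB52598 was at 491 ± 43.5 in the tentacles and 3314 ± 313 in the mouthparts (SD, n = 9 each). In the tentacles it was followed by 3 serpins, GB50522 at 147 ± 16.1, GB48820 at 118 ± 13.6 and GB54611 at 106 ± 3.49. GB48820 overlapped in its SD with both GB50522 and GB54611. The CLIP domain protease GB45700 was next, at 77.2 ± 7.39. In the mouthparts the order after GB52598 was GB45700 at 715 ± 107, GB54611 at 605 ± 39.5, GB48820 at 507 ± 87.5 and the serpin GB54541 at 92.2 ± 8.48. GB45700 and GB54611, and GB54611 and GB48820, overlapped in their SDs, and GB54541 lay far below. These SDs span the 3 groups of a tissue and so include differences between the groups. GB45700 lay above GB54611 in the control mouthparts (698 to 745 against 576 to 615) and below it in each mouthparts pear library. The serpin GB50522, second in the tentacles, was not among the 5 highest in the mouthparts.

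Each comparison was tested with edgeR's quasi-likelihood F test on the counts of the whole table, and a gene passed at a Benjamini-Hochberg adjusted p under 0.05 over all genes tested. Between tissues, with the 3 groups of each weighted equally, 27 of the 50 tested members were higher in the mouthparts and 14 were lower. That is 82% of those tested, beside a background of 82.5% of 13361 genes (39.2% higher and 43.3% lower), so the share called was near that of all genes. The members' median log2 difference was 0.38 and that of all genes -0.05. On log2(FPKM + 1) with limma the members' split was 22 higher and 21 lower, and the median of all genes moved to -0.25.

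Pear pollen was compared with no pollen in the tentacles with 49 members tested, of which 11 were higher and 9 lower. This was 40.8% of the members beside 29.5% of all 12950 genes tested (14.9% higher and 14.6% lower). Olea pollen gave 9 higher and 10 lower members, 38.8% beside a background of 27.9% (14.4% higher and 13.5% lower). Both comparisons use the same 3 control libraries. Their member medians were -0.03 and -0.02, close to the all-gene medians of -0.01 and -0.00276, and neither direction prevailed. Olea and pear differed for 2 members, both lower with olea, which is 4.08% beside a background of 2.6% (1.91% higher and 0.695% lower). Both of these calls, for the serpin GB50522 and the trypsin-named GB46203, were lost without any 1 of the 6 libraries compared.

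In the mouthparts 47 members were tested. With pear pollen 7 were higher and 19 lower than in controls, 55.3% of those tested beside 33.8% of 12285 genes, and the members' median was -0.20 beside 0.01 for all genes. Lower calls made up 17.3% of all genes and higher calls 16.5%. Without replicates 2 the split was 9 higher and 13 lower, without mouthparts control replicate 3 it was 3 and 13, and on log2(FPKM + 1) it was 10 and 12. Olea pollen, against the same controls, gave 10 higher and 12 lower, 46.8% beside a background of 26.8% (12% higher and 14.8% lower), with a median of -0.22. Without replicates 2 this became 12 and 10, and on log2(FPKM + 1) 10 and 7. Olea minus pear gave 12 higher and 4 lower, 34% beside a background of 30.9% (14.9% higher and 15.9% lower), then 10 and 4 without replicates 2 and 7 and 6 on log2(FPKM + 1). The members' shares of calls were set beside the background as a description, with no test of the difference.

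**Figure D2:**
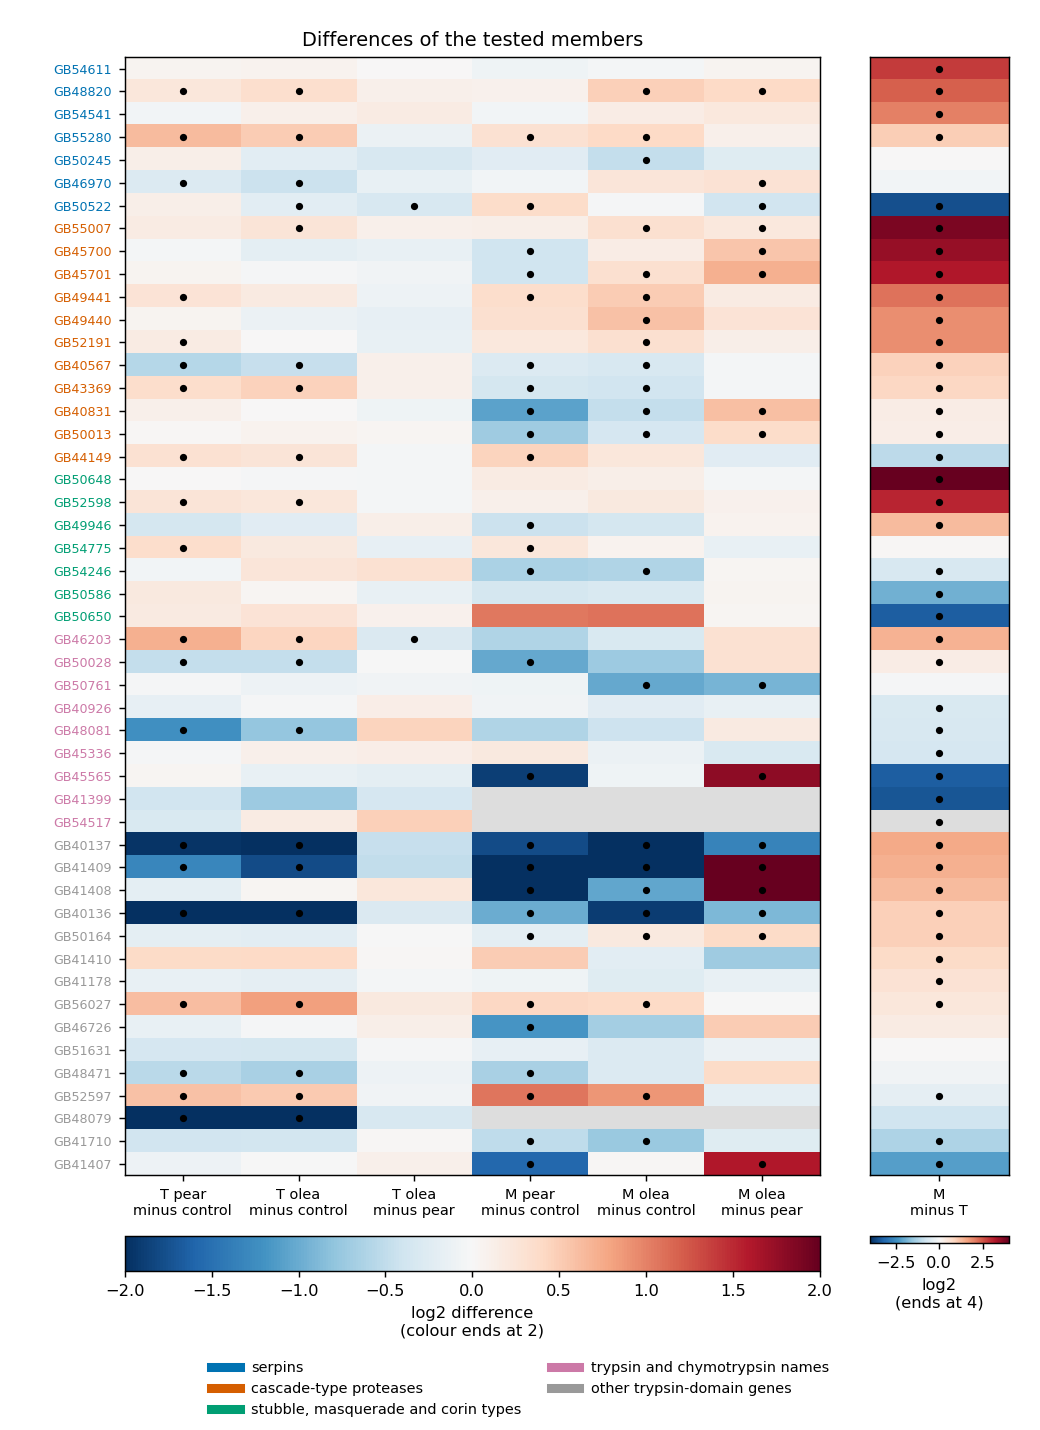
Log2 differences of 49 of the 50 tested members in 6 comparisons of pollen groups (left, T for tentacles and M for mouthparts) and between tissues (right), with red for higher in the first-named group and blue for lower. Black dots mark an adjusted p under 0.05 and grey cells were not tested or involve a group with no count. Most cascade-type proteases (orange names) are red between tissues, and the third column, olea minus pear in the tentacles, holds 2 dots.

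Cascade-type proteases were higher in the mouthparts in 10 of the 11 members tested, and GB44149 was lower, with a group median of 1.87 on the log2 scale. That is 100% of those tested, beside 82.5% of all genes (39.2% higher and 43.3% lower). On log2(FPKM + 1) with limma the calls of GB40831 (0.01, adjusted p = 0.85) and GB50013 (-0.03, adjusted p = 0.67) were lost. GB55007, named snake, a link of the fly's embryonic Toll cascade, lay at 16.1, 19.4 and 21 normalized CPM (lowest, median and highest of 9 libraries) in the tentacles and at 224, 248 and 302 in the mouthparts. Its log2 difference was 3.76 ± 0.04 (SE, adjusted p = 5.8e-24). GB45700, a CLIP domain protease, lay at 78.9, 89 and 107 normalized CPM in the tentacles and 757, 1070.2 and 1228 in the mouthparts, a difference of 3.49 ± 0.05. GB45701, named for melanization protease 1 of flies, lay at 16.1, 17.2 and 18.1 and at 115, 164 and 215, a difference of 3.20 ± 0.04. No library of one tissue reached the range of the other for these 3 genes. The modular serine protease GB52191, whose fly counterpart starts the Toll chain after microbial recognition, was higher by 1.87 ± 0.04, and the 2 persephone-named genes GB49440 and GB49441, in flies a protease that answers microbial proteases, by 1.87 ± 0.08 and 2.19 ± 0.05. GB44149, named for clotting factor B of the horseshoe crab, was the exception, at 9.18 to 12.6 normalized CPM in the tentacles and 4.29 to 6.5 in the mouthparts (-1.06 ± 0.06).

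Within the mouthparts cascade-type genes were called in both directions with each pollen. GB40567, GB40831, GB43369 and GB50013 passed as lower with both pollens, and GB49441 as higher with both. Only GB45701 passed with opposite signs against the controls. Pear pollen went with 2 higher and 6 lower of 11 tested, olea pollen with 5 higher and 4 lower, and olea minus pear with 5 higher and 0 lower. These were 72.7%, 81.8% and 45.5% of the group beside 33.8%, 26.8% and 30.9% of all genes. The splits depend on replicates 2. Without them the lower calls of GB40567 and GB43369 with pear were lost (adjusted p = 0.11 and 0.062). GB52191 and GB55007 then passed as higher with pear (adjusted p = 0.0017 and 0.027). With olea the lower calls of GB40567, GB40831 and GB50013 were lost there (adjusted p = 0.15, 0.078 and 0.072), and GB45700 passed as higher. GB45701 was at 165, 164 and 155 normalized CPM in the 3 controls, 130.3, 115 and 122 with pear and 215, 179 and 204 with olea. The 3 groups did not overlap, with pear lowest and olea highest. It fell by 0.39 ± 0.08 with pear (adjusted p = 0.002), rose by 0.32 ± 0.08 with olea (adjusted p = 0.009) and was 0.71 ± 0.08 higher with olea than with pear (adjusted p = 6.2e-05). GB45700 was at 1085, 1076 and 1047 normalized CPM in controls, 863, 757 and 804 with pear and 1228, 1070.2 and 1215 with olea. Pear lay below all other libraries, and the olea libraries overlapped the controls through olea replicate 2. It fell by 0.40 ± 0.08 with pear and was 0.55 ± 0.08 higher with olea than with pear (adjusted p = 0.00033). Olea minus control was 0.15 ± 0.08 (adjusted p = 0.18), and 0.23 ± 0.05 without replicates 2 (adjusted p = 0.011).

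GB40831 and GB50013 were lower with both pollens in the mouthparts, though with olea neither call held under every alternative. GB40831, named gd, a fly protease that acts before snake, was at 10.4, 8.4 and 8.16 normalized CPM in controls, 4.21, 3.73 and 4.82 with pear and 7.17, 6.38 and 5.64 with olea. The 3 groups did not overlap and pear was lowest. Pear minus control was -1.07 ± 0.15 (adjusted p = 0.00019). Olea minus pear was 0.60 ± 0.15, a call lost without replicates 2 (0.50, adjusted p = 0.075) and on log2(FPKM + 1) (0.35). The olea minus control call (-0.47 ± 0.15) was lost without control replicate 1 or 2 or olea replicate 2 or 3. It was also lost without replicates 2 (adjusted p = 0.078) and on log2(FPKM + 1), at log2 values of -0.51 to -0.34 over all these settings. GB50013, with the name proclotting enzyme, fell by 0.71 ± 0.10 with pear (adjusted p = 0.00028). Its olea difference of -0.34 ± 0.10 (adjusted p = 0.03) was lost without control replicate 1 or 3 or olea replicate 1 or 2, and without replicates 2 (-0.37 to -0.23 over the settings that lost it). Rises were seen with olea in GB49440 (0.59 ± 0.13) and GB49441 (0.51 ± 0.09). GB49441 was at 98.9, 97.3 and 89.3 normalized CPM in controls, 125, 111 and 126 with pear and 146, 115 and 139 with olea, with both pollen groups above every control. Its rise with pear was 0.34 ± 0.09, and 0.29 without control replicate 3, where it no longer passed (adjusted p = 0.064). GB44149 rose by 0.44 ± 0.13 with pear, a call lost without control replicate 1 or 3 or pear replicate 1, at 0.37 to 0.42.

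The 2 nudel-named genes, in flies the protease at the head of the embryonic cascade, differed in the tentacles. GB43369 was at 21, 18.7 and 21.7 normalized CPM in control tentacles, 24.7, 26.6 and 28.1 with pear and 28.7, 29.4 and 27.4 with olea, so that both pollen groups lay above the controls. In the mouthparts it was at 52.5, 53.7 and 51.4 in controls, 43.6, 38.8 and 41 with pear and 42.2, 41.6 and 35.7 with olea, so that both lay below. It rose in the tentacles by 0.36 ± 0.08 (pear) and 0.46 ± 0.08 (olea) and fell in the mouthparts by 0.35 ± 0.08 and 0.38 ± 0.08. Without replicates 2 the mouthparts pear value was -0.26 ± 0.09 and no longer passed (adjusted p = 0.062). GB40567 fell by 0.58 ± 0.11 (pear) and 0.47 ± 0.11 (olea) in the tentacles. In the tentacles the cascade-type group as a whole had 4 higher and 1 lower with pear and 3 higher and 1 lower with olea, 45.5% and 36.4% of 11 beside 29.5% and 27.9% of all genes.

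**Figure D3:**
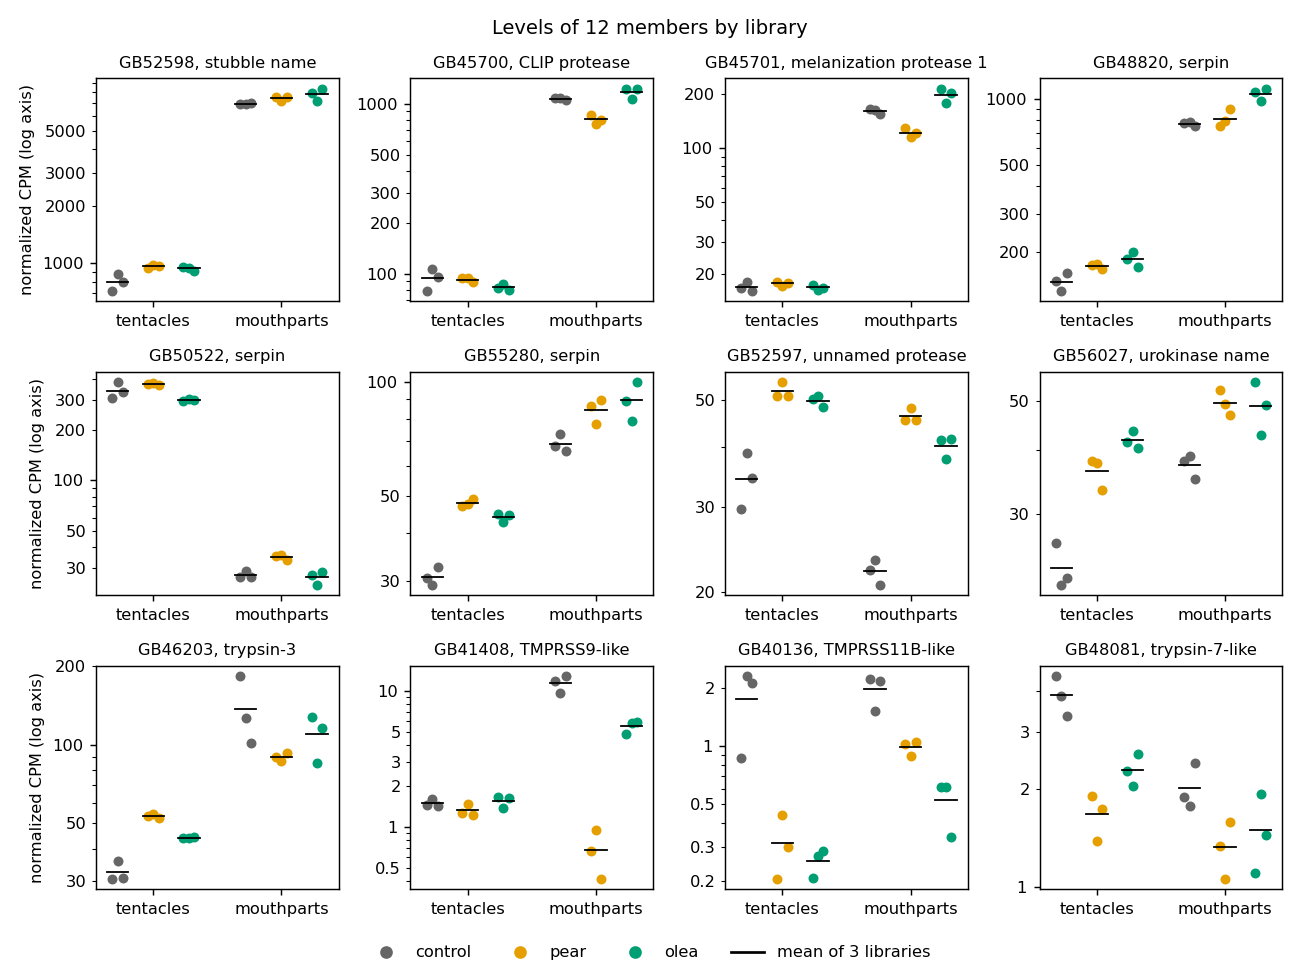
Normalized CPM (log axis) of 12 members in each library, by tissue and group, with a line at the mean of 3 libraries. GB45701 and GB41408 show 3 separate groups in the mouthparts, GB52597 and GB55280 lie above the controls with both pollens in both tissues, and GB40136 lies below them.

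Genes with stubble, masquerade and corin names held the widest spread between tissues. GB52598 lay at 714, 951 and 979 normalized CPM (lowest, median and highest of 9) in the tentacles and 6925, 7227 and 8379 in the mouthparts, a log2 difference of 3.04 ± 0.04. A second stubble-named gene, GB50648, lay at 2.58, 2.89 and 3.28 and at 44.9, 52.6 and 56.4 (4.14 ± 0.06). The other stubble-named genes tested went the other way. GB50650 lay at 5.25, 6.08 and 7.35 in the tentacles and 0.118, 0.547 and 1.12 in the mouthparts (-3.30 ± 0.16), and GB50586 at 7.39 to 10.4 and 1.91 to 2.86 (-1.91 ± 0.07). Over the group 3 were higher in the mouthparts and 3 lower of 7 tested, 85.7% beside 82.5% of all genes and so near the background. Genes of the same name thus differed in tissue by opposite signs, in each case with no overlap of libraries.

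With 7 of this group tested, pear pollen went with 2 higher and 0 lower in the tentacles (28.6% beside 29.5% of all genes) and 1 higher and 2 lower in the mouthparts (42.9% beside 33.8%). Olea pollen went with 1 higher and 0 lower (14.3% beside 27.9%) and 0 higher and 1 lower (14.3% beside 26.8%). GB52598 was at 714, 885 and 803 normalized CPM in control tentacles, 952, 979 and 974 with pear and 959, 951 and 918 with olea. Every pollen library lay above every control, and the rises were 0.26 ± 0.06 (adjusted p = 0.009) and 0.22 ± 0.06 (adjusted p = 0.022). The olea call was lost without olea replicate 1 or 2, at 0.20 to 0.22. Its mouthparts levels were 6952, 6925 and 7012 in controls, 7566, 7227 and 7523 with pear and 7934, 7222 and 8379 with olea, again with no overlap with controls. Its differences there, 0.10 ± 0.07 and 0.19 ± 0.07, did not pass (adjusted p = 0.32 and 0.079), and were 0.14 ± 0.04 and 0.25 ± 0.04 without replicates 2, where both passed (adjusted p = 0.018 and 0.0015). GB54775, named for corin, which processes a heart hormone in mammals, rose in the tentacles with pear by 0.36 ± 0.07. It was also the 1 gene higher with pear in the mouthparts (0.23 ± 0.07). That call was lost without any 1 control replicate or pear replicate 2, and without replicates 2 (0.17, adjusted p = 0.11). GB54246, an uncharacterized gene of this group, was -0.64 ± 0.17 and -0.61 ± 0.18 in the mouthparts with pear and olea. The pear call was lost without control replicate 2 or pear replicate 2 (-0.55 to -0.24 over the settings that lost it). Among those settings was the fit without replicates 2 (-0.38, adjusted p = 0.13). The olea call was lost without control replicate 2 or 3 or olea replicate 1 or 3 (-0.63 to -0.27).

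All 7 serpins were tested in every comparison. Between tissues 4 were higher in the mouthparts, 1 was lower and 2 did not pass. The share called was 71.4%, beside 82.5% of all genes (39.2% higher and 43.3% lower). GB54611 lay at 212, 242 and 253 normalized CPM in the tentacles and 1504, 1690.4 and 1769 in the mouthparts (2.80 ± 0.04). GB48820, named antichymotrypsin-2, lay at 132, 171 and 201 and at 753, 796 and 1119 (2.38 ± 0.05), and GB54541, named for the leukocyte elastase inhibitor, at 76.2, 82 and 92.8 and at 299, 334 and 379 (2.02 ± 0.04). GB55280 was higher by 0.999 ± 0.044. GB50522 ran against them, at 296, 337 and 384 in the tentacles and 23.8, 28.5 and 36.2 in the mouthparts (-3.52 ± 0.05, adjusted p = 2e-22). Tentacles and mouthparts libraries did not overlap for any of these 5. GB46970 and GB50245 were -0.11 ± 0.06 (adjusted p = 0.063) and 0.00 ± 0.07 (adjusted p = 0.99).

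GB55280, a serpin with no known function in its annotation, rose with both pollens in both tissues. In the tentacles it was at 30.4, 29.2 and 32.6 normalized CPM in controls, 47.1, 47.6 and 49.1 with pear and 45.1, 42.9 and 44.6 with olea. Mouthparts libraries held it at 67.8, 72.9 and 65.6 in controls, 86.5, 77.4 and 89.4 with pear and 89.4, 79.1 and 99.8 with olea. Every pollen library lay above every control of its tissue. The rises were 0.63 ± 0.06 (adjusted p = 1e-05) and 0.51 ± 0.06 (adjusted p = 7.1e-05) in the tentacles and 0.30 ± 0.09 and 0.40 ± 0.09 (adjusted p = 0.02 and 0.0068) in the mouthparts. The mouthparts pear call was lost without control replicate 1 or 3 or pear replicate 1 or 3, at 0.25 to 0.28.

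The other serpins changed in fewer comparisons. GB48820 was at 147, 132 and 160.2 normalized CPM in control tentacles, 175, 176 and 167 with pear and 186, 201 and 171 with olea. The mouthparts values were 775, 783 and 754 in controls, 753, 796 and 898 with pear and 1081, 986 and 1119 with olea. Olea was above every control in both tissues, by 0.33 ± 0.07 and 0.48 ± 0.08 (adjusted p = 0.0055 and 0.00099). The tentacles pear difference of 0.23 ± 0.07 was lost without control replicate 1 or 2, any pear replicate or olea replicate 1 (0.15 to 0.25 over the settings that lost it), and the mouthparts pear difference was 0.09 ± 0.08 (adjusted p = 0.43). GB50522 was at 309, 384 and 337 normalized CPM in control tentacles, 377, 378 and 368 with pear and 296, 304 and 299.8 with olea. In the mouthparts it was at 26.5, 29.1 and 26.4 in controls, 35.6, 36.2 and 33.4 with pear and 27.3, 23.8 and 28.5 with olea. Pear was above olea in both tissues with no overlap, by log2 differences (olea minus pear) of -0.32 ± 0.06 and -0.39 ± 0.08 (adjusted p = 0.02 and 0.0038). The tentacles value stayed at -0.34 to -0.32 without any 1 of the 6 libraries but no longer passed, and the mouthparts rise with pear was 0.36 ± 0.08. GB46970, also named for the leukocyte elastase inhibitor, fell with olea in the tentacles by 0.43 ± 0.09. GB50245 fell with olea in the mouthparts (-0.47 ± 0.13), a call lost without control replicate 1 or 2 or olea replicate 1, while GB54541 and GB54611, among the most abundant serpins, passed in no comparison with control. Without replicates 2, GB50245 was at -0.40 and no longer passed, and GB54541 passed in the mouthparts with olea (0.26 ± 0.06, adjusted p = 0.019).

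Genes with trypsin and chymotrypsin names, the family of the digestive enzymes, were mostly scarce. Of the 17, 9 were tested between tissues, 2 of them higher in the mouthparts and 6 lower. The share called was 88.9%, beside 82.5% of all genes (39.2% higher and 43.3% lower). The exception in abundance was GB46203, named trypsin-3. It was at 30.6, 35.8 and 30.8 normalized CPM in control tentacles, 53.4, 54.4 and 52.5 with pear and 43.8, 43.8 and 44.2 with olea, and the 3 groups did not overlap. It rose by 0.71 ± 0.07 (adjusted p = 1.1e-05) and 0.42 ± 0.07 (adjusted p = 0.00063), the latter call lost in the fit of all 18 libraries (0.44, adjusted p = 0.082). Olea minus pear was -0.28 ± 0.07 (adjusted p = 0.043), a call lost without any pear or olea tentacles replicate at -0.30 to -0.27. Its mouthparts levels were 183, 126 and 102 in controls, 90.1, 86.4 and 93.2 with pear and 128, 85.4 and 115 with olea. The controls there were widely spread, and -0.60 ± 0.23 and -0.31 ± 0.23 did not pass (adjusted p = 0.088 and 0.39).

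GB48081, named trypsin-7-like, took the opposite course in the tentacles, at 4.44, 3.87 and 3.34 normalized CPM in controls, 1.91, 1.39 and 1.74 with pear and 2.27, 2.04 and 2.56 with olea. All pollen libraries lay below all controls, and it fell by 1.22 ± 0.17 (adjusted p = 0.00026) and 0.78 ± 0.17 (adjusted p = 0.0047). GB50028, named trypsin-5, fell by 0.48 ± 0.12 with each pollen there, though neither call held in the fit of all 18 libraries (-0.47, adjusted p = 0.14). Chymotrypsin-1-named GB45565 lay at 3.86, 4.57 and 5.26 in the tentacles and 0.086, 0.509 and 0.988 in the mouthparts (-3.30 ± 0.15). Trypsin-1-named GB41399 lay at 0.382, 0.813 and 1.34 and at 0, 0.086 and 0.212 (-3.43 ± 0.46). The second gene named chymotrypsin-1, GB50761, fell with olea in the mouthparts by 1.03 ± 0.26. Olea minus pear for it was -0.94 ± 0.25, and -0.74 without pear replicate 3, where the call was lost. Trypsin epsilon-named GB54517 had 3, 4 and 8 counts in the control mouthparts, 10, 8 and 6 with pear and 0 in all 3 olea libraries. There 3 counts over the group would be 0.0378 CPM on raw totals, without TMM scaling.

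Among the 18 other trypsin-domain genes were the largest pollen differences of the 62. GB41408, named for a transmembrane protease of the TMPRSS9 kind, was at 11.8, 9.68 and 12.9 normalized CPM in control mouthparts, 0.668, 0.946 and 0.416 with pear and 4.84, 5.85 and 5.89 with olea. The 3 groups were far apart. It fell by 4.08 ± 0.22 with pear (adjusted p = 7.6e-08) and by 1.04 ± 0.18 with olea (adjusted p = 0.0015), and olea stood 3.04 ± 0.23 above pear. In the tentacles it was at 1.46, 1.61 and 1.43 in controls, 1.26, 1.48 and 1.23 with pear and 1.65, 1.38 and 1.63 with olea, with overlap and differences of -0.19 ± 0.17 and 0.04 ± 0.17 (adjusted p = 0.43 and 0.91). GB41409, with the same honey bee match, was at 2.16, 3.13 and 3.07 in control mouthparts, 0.128, 0.143 and 0 with pear and 0.492, 0.577 and 0.382 with olea, and fell by 4.87 ± 0.48 and 2.50 ± 0.40. In the tentacles it was under 1 normalized CPM in every library, with -1.30 ± 0.43 for pear and -1.79 ± 0.47 for olea. The pear call there was lost without any 1 control or pear replicate or olea replicate 1 (-1.43 to -0.17 over the settings that lost it), and the olea call without olea replicate 1 or 2 (-1.84 to -1.50).

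GB40136 and GB40137, both matched to 1 honey bee gene named transmembrane protease serine 11B-like, were lower with pollen in both tissues. GB40136 was at 0.87, 2.31 and 2.12 normalized CPM in control tentacles, 0.206, 0.441 and 0.3004 with pear and 0.207, 0.27 and 0.288 with olea. Mouthparts libraries held it at 2.24, 1.53 and 2.19 in controls, 1.03, 0.889 and 1.05 with pear and 0.615, 0.618 and 0.339 with olea. All pollen libraries lay below the controls of their tissue. It fell by 2.48 ± 0.39 and 2.77 ± 0.41 in the tentacles and by 0.996 ± 0.252 and 1.89 ± 0.28 in the mouthparts. GB40137 fell by 1.96 ± 0.30 and 2.42 ± 0.33 and by 1.79 ± 0.29 and 3.12 ± 0.35. Olea minus pear in the mouthparts was -0.90 ± 0.29 and -1.33 ± 0.37. These 2 calls were lost without pear replicate 1 or 3 or olea replicate 3 for GB40136 (-0.91 to -0.67 over the settings that lost it) and without pear replicate 3 or olea replicate 2 or 3 for GB40137 (-1.23 to -1.08). Genes that share a match, here these 2 and GB41408 with GB41409, may share reads, and how such reads were counted is not given in the sources used here, so the split between them is uncertain.

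In this group GB52597 and GB56027 rose with both pollens in both tissues. GB52597, an uncharacterized protease, was at 29.8, 38.8 and 34.5 normalized CPM in control tentacles, 51.1, 54.4 and 50.9 with pear and 50.2, 51.1 and 48.3 with olea. The mouthparts values were 22.2, 23.3 and 20.7 in controls, 45.5, 48.1 and 45.6 with pear and 41.3, 37.6 and 41.6 with olea. It rose by 0.59 ± 0.08 and 0.52 ± 0.08 in the tentacles and by 1.08 ± 0.07 (adjusted p = 4.8e-07) and 0.88 ± 0.07 (adjusted p = 6.2e-06) in the mouthparts, with no overlap with controls. GB56027, named for urokinase, a plasminogen activator in mammals, was at 26.2, 21.7 and 22.4 in control tentacles, 38.1, 37.7 and 33.4 with pear and 41.5, 43.6 and 40.5 with olea. It rose by 0.62 ± 0.09 and 0.82 ± 0.09 there and by 0.41 ± 0.09 and 0.40 ± 0.09 in the mouthparts. GB48471, named transmembrane protease serine 5, was -0.54 ± 0.17 and -0.65 ± 0.17 in the tentacles, but the pear call was lost without control replicate 2 or any pear replicate (-0.59 to -0.36) and the olea call without olea replicate 2 (-0.54). GB46726, named for a tick salivary peptide, was -1.18 ± 0.39 in the mouthparts with pear, a call lost without control replicate 2 or 3 or pear replicate 1 or 2 (-1.24 to -0.30 over the settings that lost it). Among those settings was the fit without replicates 2 (-1.03, adjusted p = 0.13).

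Several members lie side by side in the genome as judged by their honey bee matches. All 29 such matches were found in the RefSeq gene table of assembly Amel_HAv3.1, which may not be the build the authors used. On linkage group LG9, 3 neighbouring RefSeq genes were the matches of 5 members, GB41410, the 3 genes GB41408, GB41409 and the new gene Apis_mellifera_newGene_1048, and GB41407. Of these, GB41408, GB41409 and GB41407 fell with pear in the mouthparts, GB41407 by 1.58 ± 0.31 from 0.669, 0.804 and 1.18 normalized CPM to 0.257, 0.315 and 0.305. The new gene had 19, 0 and 20 counts in control mouthparts, 0 in all 3 pear libraries and 0, 11 and 0 with olea. It did not pass (adjusted p = 0.088 for pear). Without replicates 2 it passed (adjusted p = 0.0022), but that fit leaves out the control library with 0 counts and keeps those with 19 and 20. GB41410 was 0.50 ± 0.41 with pear (adjusted p = 0.38). On LG6, 2 neighbouring RefSeq genes were matched by GB48079 and GB48080 and by GB48081. GB48079 had 28, 37 and 15 counts in control tentacles, 4, 4 and 0 with pear and 4, 2 and 0 with olea, and passed as lower with both (adjusted p = 0.0053 and 0.0044), as did GB48081. GB48080 had too few counts to be tested. The pair on LG15 is matched by GB50026, GB50027 and GB50314, none of which was tested.

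Whether a pollen effect differed between the tissues was tested by the interaction in the fit of all 18 libraries. For pear, 1 of 50 tested members had a higher effect in the mouthparts and 12 a lower one, 26% beside a background of 12.8% of all genes (5.46% higher and 7.31% lower). The mouthparts effect minus the tentacles effect was -3.90 ± 0.29 for GB41408 (adjusted p = 2.1e-08), -3.59 ± 0.75 for GB41409, -1.94 ± 0.41 for GB45565 and -1.49 ± 0.29 for GB41407. Of the 12, 5 were cascade-type proteases, GB40831 (-1.19 ± 0.21), GB50013 (-0.75 ± 0.16), GB43369 (-0.72 ± 0.11), GB45701 (-0.46 ± 0.10) and GB45700. For the last the value was -0.38 ± 0.12, and the call was lost without any 1 of 12 libraries, namely tentacles control replicate 1, every tentacles pear and olea replicate, every mouthparts control replicate and mouthparts pear replicates 2 and 3 (-0.41 to -0.24 over the settings that lost it). The GB45700 call was also lost without replicates 2 (-0.33, adjusted p = 0.097). The value of GB46203 was -1.33 ± 0.24. The calls of the serpin GB55280 (-0.35) and the stubble-named GB50586 (-0.57) were lost under 13 and 8 of 24 alternatives, at -0.36 to -0.18 and -0.55 to -0.22, and both among other settings without replicates 2. Those of GB41407, GB45565 and GB45701 were lost on log2(FPKM + 1) alone, at -0.26, -0.39 and -0.30. The one higher effect was that of GB52597 (0.47 ± 0.11, adjusted p = 0.0093). On log2(FPKM + 1) the split was 4 higher and 6 lower.

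For olea the interaction gave 5 higher and 6 lower members, 22% beside a background of 15.4% (4.93% higher and 10.5% lower). The values were -0.88 ± 0.11 for GB43369 (adjusted p = 3.6e-05), -0.88 ± 0.21 for GB54246 and -1.10 ± 0.26 for GB41408. GB49440 and the serpin GB46970 were higher, by 0.67 ± 0.18 and 0.64 ± 0.14, and GB50164, named tryptase, by 0.37 ± 0.10. The GB49440 call was lost without tentacles olea replicate 3 (0.63), and that of GB50164 without tentacles olea replicate 1 or 3, mouthparts control replicate 2 or mouthparts olea replicate 3, and without replicates 2 (0.33 to 0.35). GB46203 (-0.76) lost its call under 20 of 24 alternatives, replicates 2 left out among them, at -0.84 to -0.49. GB45701 (0.31) and GB52191 (0.28) each lost it under 9, all of them single libraries left out, at 0.25 to 0.34 and 0.24 to 0.29. GB56027 (-0.45) lost it on log2(FPKM + 1), without tentacles olea replicate 2 or mouthparts control replicate 2, and without replicates 2, at -0.42 to -0.33. Without tentacles olea replicate 3 the count fell from 11 to 6, without mouthparts control replicate 2 to 6 and without mouthparts olea replicate 3 to 7.

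**Figure D4:**
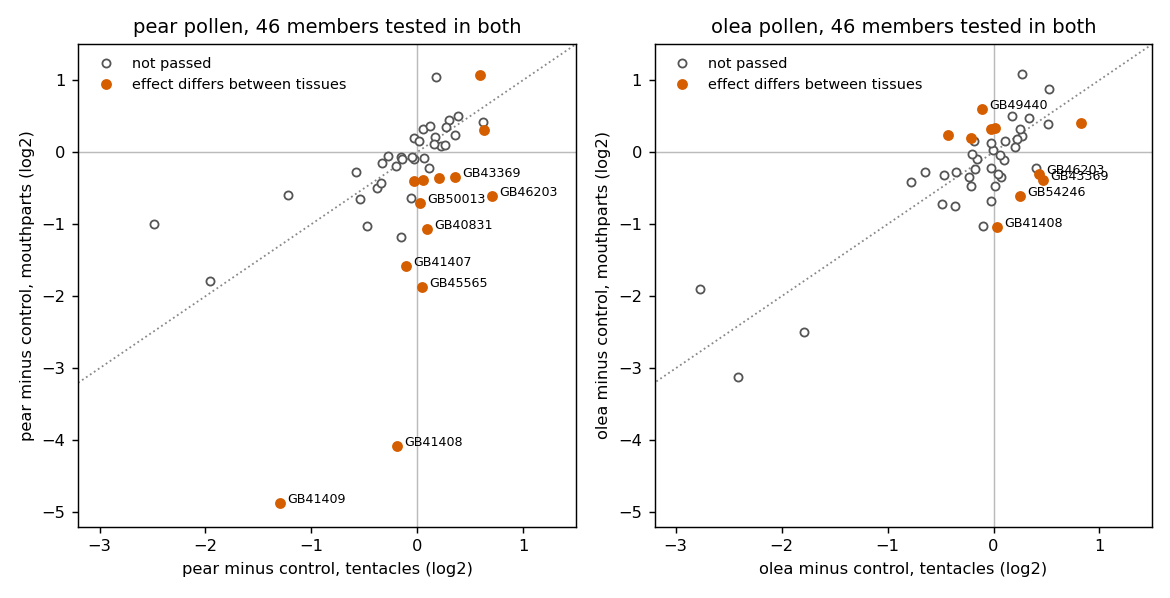
Pollen minus control (log2) of the 46 members tested in both tissues, tentacles on the x axis and mouthparts on the y axis, for pear (left) and olea (right). Filled points passed the interaction test, the dotted line marks equal effects, and GB41408 lies near 0 in the tentacles and at -4.08 in the mouthparts with pear.

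The wider pathways were read from lists of other genes. Of 39 melanization and Toll genes (35 tested in each tissue), 14 rose and 9 fell with pear in the tentacles and 11 rose and 9 fell in the mouthparts, and with olea 10 rose and 6 fell and 10 rose and 3 fell. That is 65.7% and 57.1% with pear, beside 29.5% and 33.8% of all genes, and 45.7% and 37.1% with olea, beside 27.9% and 26.8%. Phenoloxidase 2 (GB44996), which oxidizes phenols on the way to melanin, went from 189 ± 27 normalized CPM in control mouthparts to 8.82 ± 0.64 with pear and 20.9 ± 2.4 with olea (SD, n = 3 each), log2 differences of -4.41 ± 0.13 and -3.15 ± 0.12. In the tentacles it fell from 9.27 ± 1.9 to 3.56 ± 0.30 and 4.8 ± 0.996. It is also 1 of the 5 haemocyte markers. Apidaecin (GB47546), an antimicrobial peptide, rose in the tentacles with pear from 3.63 ± 1.3 to 25.8 ± 2.9 (2.81 ± 0.20), by 1.87 ± 0.20 with olea there, and by 0.57 ± 0.18 (pear) and 1.197 ± 0.186 (olea) in the mouthparts. Defensin-1 (GB41428) fell in the tentacles with olea from 117 ± 20 to 46.1 ± 3.8 (-1.35 ± 0.11), equally with pear (-1.35 ± 0.11), and in the mouthparts by 2.41 ± 0.14 with pear and 1.14 ± 0.13 with olea. Of 23 protease inhibitors other than serpins (19 tested), 1 rose and 7 fell with pear in the tentacles, 1 rose and 10 fell in the mouthparts, 1 rose and 5 fell with olea in the tentacles and 3 rose and 7 fell in the mouthparts. These were 42.1%, 57.9%, 31.6% and 52.6% of those tested, beside 29.5%, 33.8%, 27.9% and 26.8% of all genes. Among those with a trypsin inhibitor-like domain, GB50121 fell with pear by 2.31 ± 0.11 in the tentacles and 1.82 ± 0.11 in the mouthparts, and with olea by 2.13 ± 0.11 and 0.75 ± 0.11. GB50115 was at 407 ± 82 normalized CPM in control mouthparts, 0.787 ± 0.40 with pear and 46.6 ± 14 with olea (-8.99 ± 0.41 and -3.11 ± 0.27). Tentacles libraries held it at 48.3 ± 18 in controls, 1.92 ± 0.30 with pear and 2.62 ± 0.27 with olea (-4.66 ± 0.32 and -4.22 ± 0.31).

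Of 40 peptidases of other classes, 10 of 36 tested rose and 2 fell with pear in the tentacles and 8 rose and 4 fell with olea. In the mouthparts 7 of 37 rose and 5 fell with pear, and 5 rose and 7 fell with olea. The shares called were 33.3% for each pollen in the tentacles and 32.4% for each in the mouthparts, beside 29.5%, 27.9%, 33.8% and 26.8% of all genes (pear and olea in the tentacles, then in the mouthparts), and so near the background. Cathepsin B (GB44146), a lysosomal cysteine protease, rose in the tentacles from 170.5 ± 15 normalized CPM to 437 ± 6.7 with pear and 426 ± 12 with olea, and did not pass in the mouthparts (0.03 ± 0.07 and -0.02 ± 0.07, adjusted p = 0.76 and 0.91). The neprilysins GB42889 and GB52025, membrane metallopeptidases that cut peptide signals, rose with both pollens in both tissues, the first by 1.05 ± 0.07 (pear) and 0.33 ± 0.07 (olea) in the mouthparts and 0.27 ± 0.04 and 0.23 ± 0.04 in the tentacles, and the second by 0.55 ± 0.07 and 0.50 ± 0.07 and by 0.49 ± 0.05 and 0.34 ± 0.05. In each list these genes were those with the smallest p in a comparison with control.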

How the data were processed

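RNA sequencing libraries were made with a SMARTER mRNA kit from total RNA, per the labels' protocols. Reads were mapped with HISAT2, per the submitters' processing notes. The sources used here give no version for it, nor the genome build, annotation, counting program or use of strand. Raw counts per gene and FPKM per gene were deposited by the authors for each of the 18 libraries in 1 table, whose 70 overlong lines were joined to the line before. The authors' own comparison columns (24) were not used.

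Counts were fitted with edgeR 4.0.16 in R 4.3.3 (TMM scaling, filterByExpr by group, robust quasi-likelihood F test, Benjamini-Hochberg over all genes). Pollen groups were compared in a fit of the 9 libraries of their tissue, with no replicate block, and tissues and interactions in a fit of all 18. SE is the log2 difference over the root of F. Scripts were tested on simulated data. The authors' FPKM were used to compare levels between genes and, as log2(FPKM + 1) in limma 3.58.1, as an alternative. DESeq2 1.42.0, RLE factors, no filter, other libraries in the fit, a replicate block and each library left out were the others. Shares of counts are raw. Counting error only lies behind the 3-count floor.

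Depth ran from 25.9 to 41.4 M counts. No 2 replicates agreed within sampling noise. The members and lists were chosen with earlier results of these data known. Genes named are all serpins, the 5 highest by FPKM in each tissue, up to 4 per direction and comparison by fold among members that passed with at least 1 CPM, and for each other list the gene with the smallest p per comparison with control. Others named, such as GB52191, GB50013, GB54775 and the neighbours, were chosen after their values were seen. Role groups were planned from several domain entries per gene, but each gene has 1, so names were used after the annotation was seen. No sequence is printed.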

Additional observations from a re-analysis of the deposited data

Results flagged for a closer look

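The effect of a pollen differed between the 2 tissues by the interaction test for 24 pairs of member and pollen. In each group of 3 libraries single outlying libraries could not be tested for. Values are log2, mouthparts effect minus tentacles effect. For pear they were -3.90 (GB41408), -3.59 (GB41409), -1.94 (GB45565), -1.49 (GB41407), -1.33 (GB46203), -1.19 (GB40831), -0.75 (GB50013), -0.72 (GB43369), -0.57 (GB50586), -0.46 (GB45701), -0.38 (GB45700), -0.35 (GB55280) and 0.47 (GB52597). For olea they were -1.10 (GB41408), -0.88 (GB54246), -0.88 (GB43369), -0.76 (GB46203), -0.45 (GB56027), 0.28 (GB52191), 0.31 (GB45701), 0.37 (GB50164), 0.64 (GB46970) and 0.67 (GB49440). GB54517 also passed for olea with a fitted value of -5.90, which is no measure of size because its 3 mouthparts olea libraries held no count. Of these calls 11 held under every alternative run. GB46203 (olea) was lost under 20 of them, GB45700 (pear) under 16, GB55280 (pear) under 13, GB45701 and GB52191 (olea) under 9 each, GB50586 (pear) under 8, GB50164 (olea) under 5, GB56027 (olea) under 4 and the others under 1. Only GB43369 passed as higher in the tentacles and lower in the mouthparts with each of the 2 pollens, and its interaction passed for both.

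Beside these results stand the marker lists, as shares of raw counts. The hypopharyngeal gland, fat body and peritrophin lists lay lower with pollen than in controls in both tissues with no overlap of libraries. The haemocyte list lay lower in the mouthparts, and the muscle list lay lower in the tentacles and higher in the mouthparts. The antennal list lay higher in the tentacles and lower in the mouthparts, the neuronal list higher in both and the venom list higher in the mouthparts. These shares were not TMM-scaled, and the fall of the hypopharyngeal gland list by itself raises the others. The part of the lists in the results above was not tested. Every olea value here rests on reading the 3 mouthparts libraries with conflicting labels as olea.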

How the results depend on the processing

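Of 170 calls of members over the 9 comparisons, 107 held under every alternative run. Over 3301 alternative values of these calls, 2990 kept direction and threshold, 309 kept direction only and 2 reversed. Those 2, GB50013 (-0.028) and GB50028 (-0.015) between tissues, reversed on log2(FPKM + 1), as did GB50245 (-0.15), which had not passed. The GB50028 tissue call was also lost without any 1 of 13 libraries and without mouthparts replicates 2 (0.24, adjusted p = 0.14). Counts of members called without 1 library ranged from 15 to 21 for pear and 13 to 21 for olea in the tentacles, 16 to 27 and 17 to 23 in the mouthparts, 0 to 3 for olea minus pear in the tentacles and 11 to 18 in the mouthparts, 41 to 45 between tissues, and 10 to 14 and 6 to 13 for the pear and olea interactions. Olea minus pear in the tentacles gave 2 members, but 1 with a replicate block, 1 in the fit of all 18 libraries and 7 in a fit of only the 6 libraries compared. Over all genes it gave 337 calls, 519 with DESeq2, 168 in the fit of all 18 and 1413 in that of only 6. The pear interaction gave 1706 calls over all genes and 2569 on log2(FPKM + 1). The cause of these shifts was not tested.

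Within a tissue replicate numbers showed no pairing, as deviations of same-numbered libraries correlated at -0.0686 to 0.0582. Between the tissues of a pollen group, same-numbered libraries correlated at 0.0113 to 0.101 in controls, -0.0496 to -0.00309 with pear and 0.0166 to 0.0429 with olea. The labels state no pairing, and whether tentacles and mouthparts of 1 number share bees was not tested. The replicate block moved the members' count by at most 2 in each of the other 8 comparisons. Members under 1 CPM rest on few counts, which limits what could be detected in them.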
